A study of Homo sapiens with 16 samples.

Results

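The genes described here are 36 genes of the G2 phase and of mitosis, followed by RNA-seq through sorafenib treatment and through overexpression of the metallothionein MT1G in cells labelled Huh7. They were chosen by name from knowledge of the mitotic programme, with earlier results of these data known. They are 36 of the 59609 genes in each of the deposited tables of normalized read counts. By role they were 6 genes of cyclins, CDK1 and its phosphatases, 7 of mitotic kinases, 5 of the kinetochore, 6 of kinesins, 6 of spindle and midbody proteins, 4 of anaphase and mitotic exit, and 2 of chromosome structure. Of the 36, 35 passed the minimum mean of 10 normalized read counts over the 6 libraries in both RNA comparisons. The exception was SPC25, a subunit of the NDC80 complex, which stood at 2.53, 10.9 and 3.20 normalized read counts in the sorafenib libraries, 5.62, 2.89 and 6.55 in those with DMSO, 1.99, 8.14 and 2.93 with MT1G overexpression and 2.19, 4.48 and 8.17 with empty vector, and was not tested.

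Entry into mitosis is driven by CDK1 bound to cyclin A or cyclin B, after CDC25 phosphatases remove its inhibitory phosphates. PLK1, the Aurora kinases and the spindle checkpoint kinases then direct spindle assembly, while kinetochores tie chromosomes to microtubules and kinesins move and sort them. The anaphase-promoting complex with CDC20 and UBE2C ends the phase by marking securin (PTTG1) and cyclin B for destruction, which frees separase (ESPL1). Transcripts of these genes accumulate late in the cell cycle, and their promoters are known targets of NF-Y, which binds CCAAT boxes, and of the DREAM and MuvB complexes with B-MYB and FOXM1, which act through a cell cycle homology region (CHR).

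Polyadenylated RNA was sequenced from 12 samples, of which 3 received sorafenib, a multikinase inhibitor used in liver cancer, 3 received its solvent DMSO, 3 overexpressed MT1G and 3 carried the empty vector. Open chromatin was mapped by ATAC-seq in 2 samples with sorafenib and 2 with DMSO. All samples were labelled Huh7, a hepatocellular carcinoma line. The labels gave no dose, no time, no vector or clone, and nothing that said replicates were separate cultures, so p-values measure the spread between these samples only. In bulk RNA, fewer cells in mitosis and less RNA per cell cannot be told apart.

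MT1G itself stood at 0 in the 3 empty vector libraries and at 140, 130 and 179 normalized read counts in the 3 overexpressing ones. It also stood at 0 with DMSO and at 158 to 194 with sorafenib. Reads counted in genes ran from 16549330 to 26781600 per library. The hepatocyte markers went against the label: ALB and APOB were at 0 in all 12 libraries, AFP reached at most 4.97 normalized read counts, and HNF4A carried nearly all of the summed level of the 10 markers. That sum was 103 to 160 with sorafenib against 337 to 354 with DMSO, and 202 to 235 with MT1G overexpression against 304 to 344 with empty vector. The sum of 7 stellate and fibroblast markers, mostly LUM and COL1A1, was 1039 to 1079 with sorafenib against 2338 to 2591 with DMSO, and 2644 to 3475 against 2159 to 2206 in the MT1G experiment. The 6 leukocyte markers summed to at most 46.9 and the 4 endothelial markers to at most 75.7 in any library. The part of these shifts in the changes below was not tested.

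The promoters of these genes share sequence features that the choice by name did not use. RefSeq promoter windows on GRCh38.p14, from 250 bases before to 50 bases after the start, were on hand for 31 of the 36 genes (40 windows, since 5 genes have several starts), and for 27305 genes in all. There was no window for AURKA, TTK, TPX2, BIRC5 and UBE2C. The windows were searched on both strands for CCAAT, the NF-Y box, and for TTTGAA and TTCGAA, 2 core forms of the CHR. Other forms were not searched, so a gene without these letters may still hold a CHR. A gene was counted when any of its windows held the letters. CCAAT was found in 25 of 31 genes (80.6%, against 39.7% of all genes with a window). TTTGAA was found in 21 (67.7% against 18.2%) and TTCGAA in 3 (9.68% against 1.82%). A CCAAT and a CHR core stood together in a window of 19 genes (61.3% against 7.85%), and 15 genes had at least 2 CCAAT matches in a window (48.4% against 12.9%). CENPE, a kinetochore motor, and KIF2C, a microtubule depolymerase, held none of these letters. A match is a description of the letters and not a bound site.

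The 200 bases before the start are shown for 8 genes whose expression is given library by library below, because they show how CCAAT boxes and CHR cores are placed in genes that later fell, rose or did not pass the test. The sequences are from RefSeq on GRCh38.p14, 5′ to 3′ on the strand of the gene, and end on the base before the start. Capitals mark the matches on either strand. A box on the other strand reads ATTGG here. A core on the other strand reads TTCAAA here, and one on the strand of the gene reads TTTGAA.
CCNB1: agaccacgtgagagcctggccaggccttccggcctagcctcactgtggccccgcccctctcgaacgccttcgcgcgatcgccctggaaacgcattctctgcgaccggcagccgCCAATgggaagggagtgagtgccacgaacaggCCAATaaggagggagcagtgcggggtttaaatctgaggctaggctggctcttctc
CENPF: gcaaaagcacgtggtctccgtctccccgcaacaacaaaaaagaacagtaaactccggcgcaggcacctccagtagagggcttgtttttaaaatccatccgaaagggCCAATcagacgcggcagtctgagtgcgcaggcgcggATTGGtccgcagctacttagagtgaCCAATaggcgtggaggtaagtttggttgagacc
KIF11: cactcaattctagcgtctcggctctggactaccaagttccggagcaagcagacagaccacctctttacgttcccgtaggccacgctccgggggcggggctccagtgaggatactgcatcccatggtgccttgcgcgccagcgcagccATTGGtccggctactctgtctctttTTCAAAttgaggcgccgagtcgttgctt
PRC1: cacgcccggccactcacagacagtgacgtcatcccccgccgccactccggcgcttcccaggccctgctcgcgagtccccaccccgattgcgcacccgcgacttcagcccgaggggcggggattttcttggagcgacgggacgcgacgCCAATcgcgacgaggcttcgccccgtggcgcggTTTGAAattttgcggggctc
ANLN: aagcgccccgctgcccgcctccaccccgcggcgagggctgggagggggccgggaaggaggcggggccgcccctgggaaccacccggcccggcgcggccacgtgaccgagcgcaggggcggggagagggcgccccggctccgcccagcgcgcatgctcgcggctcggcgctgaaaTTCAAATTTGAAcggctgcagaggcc
CDC20: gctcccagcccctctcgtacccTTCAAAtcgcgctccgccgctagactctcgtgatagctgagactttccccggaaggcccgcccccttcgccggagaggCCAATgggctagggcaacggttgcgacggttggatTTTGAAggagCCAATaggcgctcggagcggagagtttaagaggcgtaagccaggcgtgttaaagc
TOP2A: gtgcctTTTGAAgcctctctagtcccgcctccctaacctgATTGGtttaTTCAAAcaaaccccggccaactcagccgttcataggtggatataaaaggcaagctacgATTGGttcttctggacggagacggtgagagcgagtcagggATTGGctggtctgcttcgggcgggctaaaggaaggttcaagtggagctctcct
MKI67: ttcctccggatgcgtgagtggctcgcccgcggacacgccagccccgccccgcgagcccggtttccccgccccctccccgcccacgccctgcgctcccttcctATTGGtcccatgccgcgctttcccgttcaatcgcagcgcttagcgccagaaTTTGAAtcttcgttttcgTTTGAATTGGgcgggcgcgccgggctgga
They lie, in that order, at chr5:69166950-69167149 (plus strand), chr1:214602995-214603194 (plus strand), chr10:92592930-92593129 (plus strand), chr15:90994536-90994735 (minus strand), chr7:36389662-36389861 (plus strand), chr1:43358781-43358980 (plus strand), chr17:40417897-40418096 (minus strand) and chr10:128126424-128126623 (minus strand). In MKI67, the proliferation antigen Ki-67, the TTTGAA nearest to the start shares its last base with an ATTGG. CENPF, a kinetochore and nuclear matrix protein, has 3 CCAAT boxes in the printed bases, and its TTTGAA lies after the start, at bases 41 to 46. ANLN, the scaffold of the contractile ring, has 2 CHR cores side by side in opposite orientation at bases -26 to -15 and no CCAAT. CCNB1, cyclin B1, has 2 CCAAT boxes and neither TTTGAA nor TTCGAA in its window, and other forms of the CHR were not searched.

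All 31 genes with a window had an ATAC-seq peak over at least 1 base of any of their windows in all 4 libraries, against 45.8% of all 27305 genes. Of all genes, 12609 had no peak in any library, and the share among expressed genes was not taken. The count is by gene, and 1 window of CDC25B had no peak in any library. Peaks had been called by the authors in each library separately. None of the 31 had a peak in both libraries of one treatment and neither of the other. That pattern was rare among all genes (541 of 27305), so its absence from 31 genes does not set them apart. An exact test cannot pass with 2 libraries against 2. The fold enrichment of the strongest peak over each gene's windows, the authors' own value, had a median of 14.5 and 16 in the DMSO libraries and 15.7 and 15.0 in the sorafenib libraries. Its lowest and highest values were 7.80 (HMMR) and 22.5 (CDC25C) in DMSO replicate 1 and 8.63 (HMMR) and 21.6 (SPC25) in sorafenib replicate 4. Fold enrichment was not put on 1 scale across libraries. The percentile of a peak is the share of its library's peaks with a lower enrichment. The median percentile over the 31 genes was 90.5 and 87.0 with DMSO and 94.7 and 94.0 with sorafenib, a difference that was not tested. The peak over TOP2A, whose transcripts fell most with sorafenib, had an enrichment of 14.9 and 18.9 with DMSO and 15.0 and 16.5 with sorafenib. Its groups thus overlapped in enrichment, while its percentiles were 91.5 and 93.2 with DMSO and 93.4 and 96.2 with sorafenib. Other genes had separate groups in enrichment, in either direction. CDC25C stood at 22.5 and 22.3 with DMSO against 18.8 and 18.5 with sorafenib. Its percentiles overlapped, at 99.9 and 97.6 with DMSO and 98.1 and 98.2 with sorafenib. NUF2 stood at 15.3 and 17.3 with DMSO against 18.5 and 18.5 with sorafenib. Its percentiles were separate too, at 92.6 and 90.0 against 97.9 and 98.2. How many genes had separate groups was not counted, and these differences were not tested. SPC25, with few counted RNA reads, had the strongest of these peaks in 3 of the 4 libraries. Its span overlaps that of NOSTRIN, and how reads in shared spans were counted is not given in the sources used here. Whether its low RNA value comes from the counting was not tested.

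**Figure D1:**
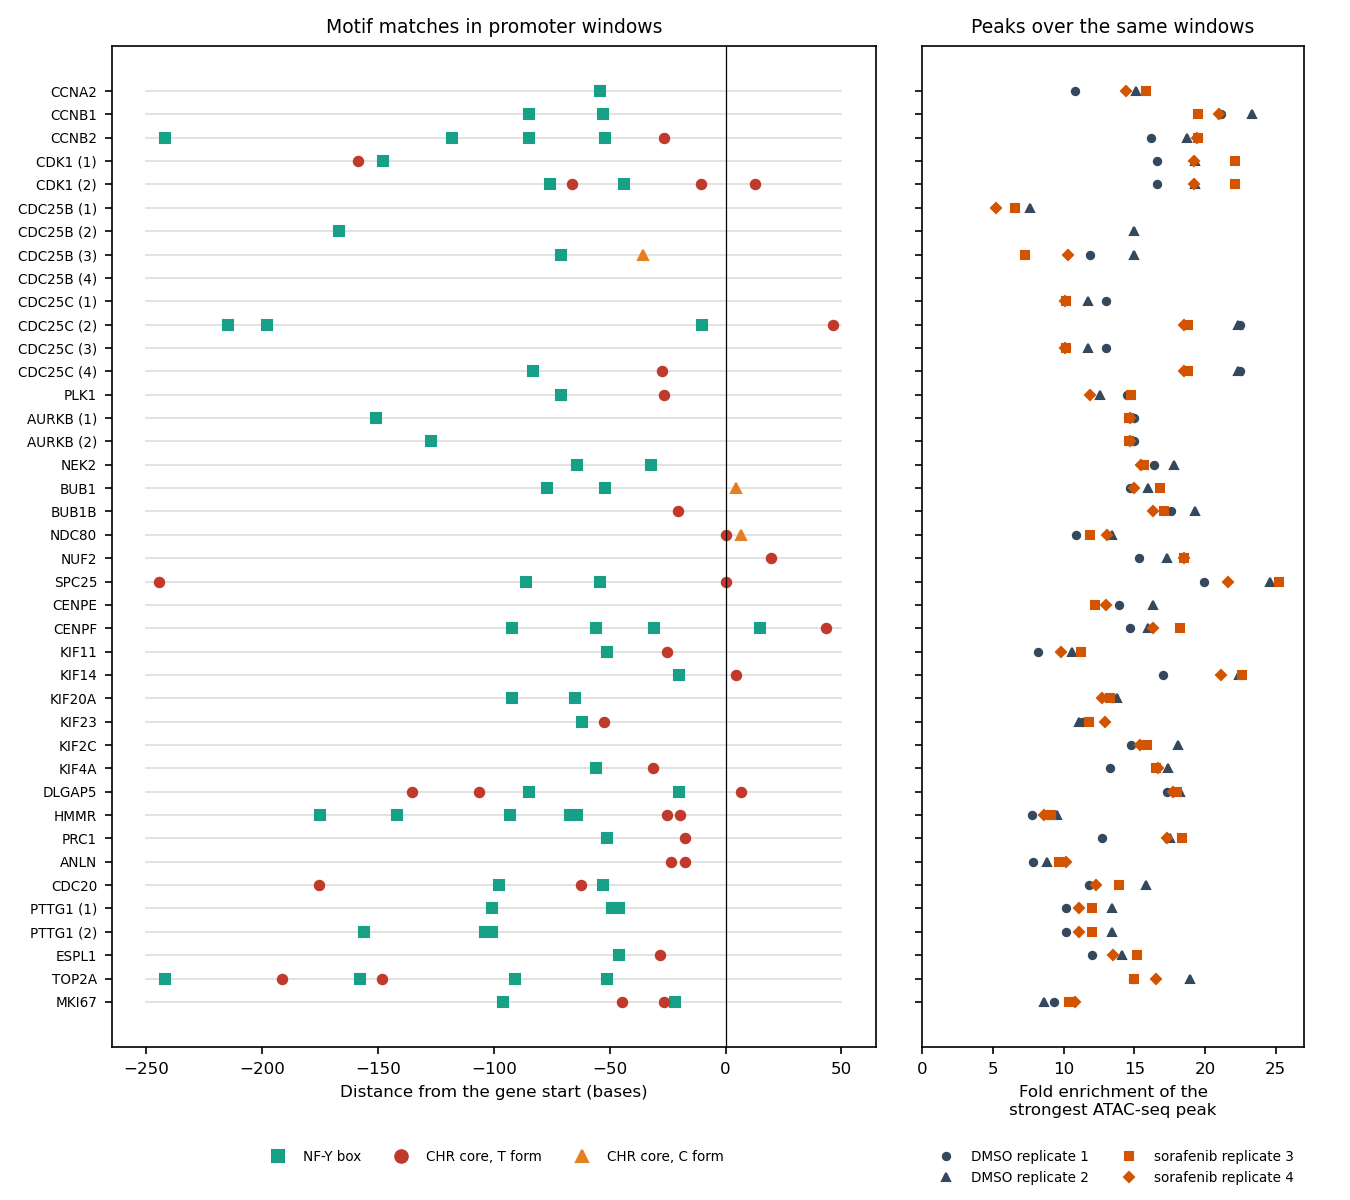
Promoter windows of the 31 genes, 1 line per RefSeq window, with a number in brackets where a gene has several. Left, distance in bases from the gene start (0) of each match to the NF-Y box and to the 2 CHR cores; right, fold enrichment of the strongest ATAC-seq peak over the window in each of the 4 libraries. CCAAT matches occur in 25 of 31 genes, and the enrichment lies between 5.26 (a window of CDC25B) and 25.2 (SPC25). DMSO and sorafenib points overlap in some windows and are separate in others.

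Sorafenib split these genes on the scale of the deposited values. CDK1, topoisomerase TOP2A, Ki-67, the ubiquitin-conjugating enzyme UBE2C, the motors KIF11 and KIF4A and the kinetochore protein CENPF fell, while AURKB and CDC20 rose. Cyclin B1, cyclin A2, PLK1 and survivin (BIRC5) did not pass the test on that scale. On a second scale, described below, cyclin B1 was called higher, and more genes were higher in the roles of all 4. Of the 35 tested, 14 were lower (40.0%, against 35.8% of the 14915 genes tested) and 7 higher (1 in 5, against 34.4%) by limma at an adjusted p below 0.05. In either direction 60.0% of them passed, fewer than the 70.3% of all tested genes. Their median change on the log2 scale (normalized read count plus 1) was -0.12, against -0.02 for all tested genes. It was -0.08 without sorafenib library 1 or without DMSO library 2. The median size of change regardless of direction was 0.27 against 0.49. The libraries of the groups did not overlap for 23 of the 35, against 73.0% of all tested genes. Changes of at least 0.5 were found in 10 of them, 7 lower and 3 higher, against 45.9% of all tested genes.

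The direction depended on scaling. The deposited values summed to 17673332 to 17793120 per sorafenib library and to 20315990 to 21317214 per DMSO library. Scaled to equal totals, a choice made after seeing the data, the median of all tested genes shifted by 0.22 to 0.20, and that of the 35 genes turned to 0.10. On that scale 16 of the 35 genes were higher and 8 lower, with 45.7% and 23.5% of all tested genes. The 7 genes called higher were higher under both scalings, and 8 of the 14 called lower were lower under both: CDK1, TTK, CENPF, KIF11, KIF4A, UBE2C, TOP2A and MKI67. No gene was called in opposite directions. Because scaling to totals moved sorafenib changes upward, it could not test the higher calls, only the lower ones.

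**Figure D2:**
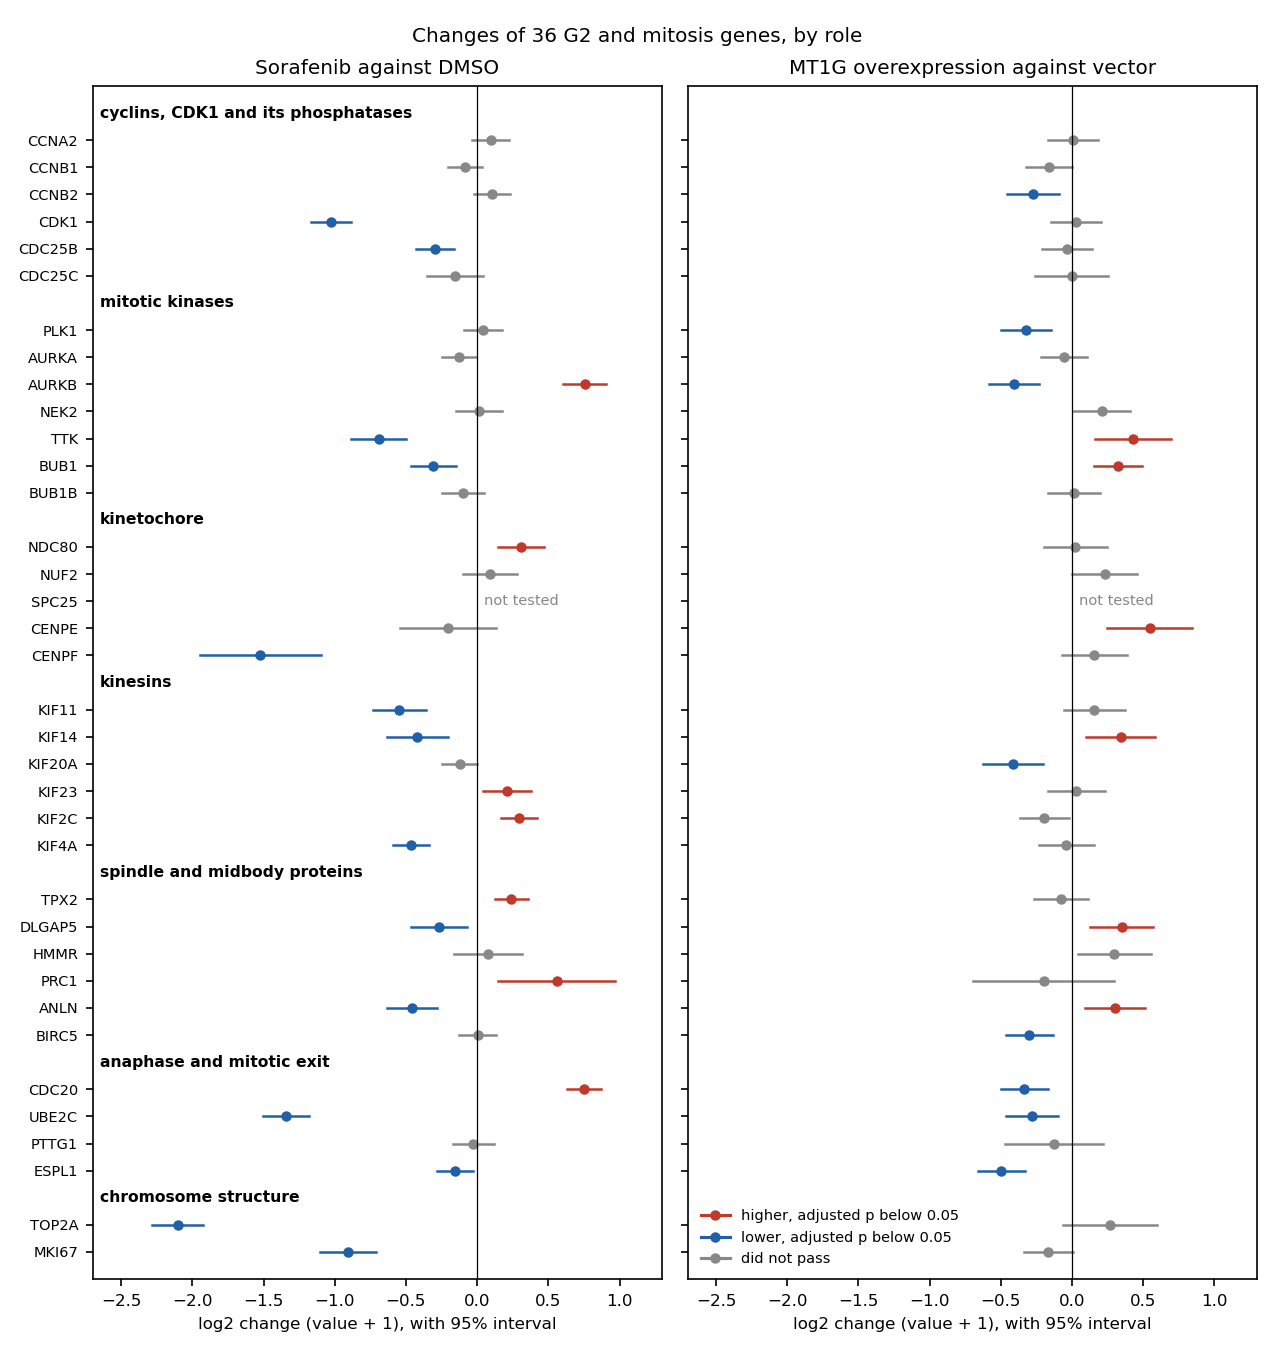
Log2 change (normalized read count plus 1) of the 36 genes by role, with 95% intervals, for sorafenib against DMSO (left) and MT1G overexpression against empty vector (right). Red and blue are genes past an adjusted p of 0.05 by limma, and grey those that did not pass. Sorafenib changes run from -2.10 (TOP2A) to 0.75 (AURKB), and MT1G changes from -0.50 (ESPL1) to 0.55 (CENPE).

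Of the cyclins, CDK1 and its phosphatases, 2 of 6 fell with sorafenib and none rose (limma), but after scaling to totals 1 was lower and 3 higher. These and the counts by role below stand beside the shares of all tested genes given above, and no role was tested as a set. CDK1, the mitotic kinase that cyclins A and B activate, stood at 905, 953 and 961 normalized read counts in the 3 sorafenib libraries against 1813, 2032 and 1899 in the DMSO libraries. Every sorafenib library was below every DMSO library, and the mean was 49.1% of control (log2 change -1.03, SE 0.07, adjusted p = 8.88e-10). CDC25B, a phosphatase that activates CDK1, fell by 0.29, and was not called after scaling to totals. CCNB1 stood at 4427, 4544 and 4491 with sorafenib and at 4555, 4814 and 4944 with DMSO. Its groups did not overlap, but the change of -0.09 (95% interval -0.21 to 0.03) did not pass, with an adjusted p of 0.171, and it turned to 0.14 and was called higher (adjusted p = 0.0215) after scaling to totals. CCNA2 at 0.10, CCNB2 at 0.10 and CDC25C at -0.15 did not pass either. On the deposited scale CDK1 thus changed without its cyclin partners passing the test. After scaling to totals 3 of the 6 genes of this role, CCNB1 among them, were called higher. The difference between CDK1 and the cyclins was not tested.

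Among the mitotic kinases 1 of 7 rose and 2 fell, against 3 higher and 1 lower after scaling to totals. AURKB, the kinase of the chromosomal passenger complex, stood at 2293, 2472 and 2394 with sorafenib against 1359, 1323 and 1573 with DMSO, a 1.68-fold level with separate groups (log2 change 0.75, SE 0.07, adjusted p = 8.63e-08). TTK, the kinase that starts the spindle checkpoint, stood at 336, 378 and 422 against 594, 637 and 598. It was lower in every sorafenib library, at 62.1% of control (log2 change -0.69, SE 0.09, adjusted p = 4.32e-06). BUB1, a checkpoint kinase that marks centromeres, fell by 0.31, and was not called after scaling to totals. PLK1 at 0.04, NEK2, a centrosome kinase, at 0.01, BUB1B, a checkpoint protein, at -0.10 and AURKA, the spindle pole kinase, at -0.13 did not pass, AURKA with an adjusted p of 0.0529.

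Of the 4 tested kinetochore genes, CENPF fell and NDC80 rose, with 1 lower and 2 higher after scaling to totals. CENPF stood at 1270, 1461 and 1769 with sorafenib and at 4498, 4944 and 3508 with DMSO, 34.7% of control with separate groups (log2 change -1.52, SE 0.17, adjusted p = 0.000347). NDC80, the microtubule-binding subunit of the outer kinetochore, rose by 0.31, while its partner NUF2 at 0.09 and the motor CENPE at -0.21 did not pass.

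Of the 6 kinesins 3 were lower and 2 higher, against 35.8% and 34.4% of all tested genes. After scaling to totals 2 were lower and 2 higher. KIF11 (Eg5), which pushes spindle poles apart, stood at 797, 820 and 883 against 1289, 1336 and 1043, below every DMSO library and at 68.1% of control (log2 change -0.55, SE 0.09, adjusted p = 3.44e-05). KIF4A, a chromokinesin, stood at 1342, 1417 and 1424 against 1959, 1952 and 1871, again with separate groups (log2 change -0.47, SE 0.06, adjusted p = 3.46e-06). KIF14, a motor of cytokinesis, fell by 0.42, but was not called after scaling to totals. KIF2C rose by 0.29 and KIF23, a subunit of centralspindlin, by 0.21, and KIF20A, a motor of the central spindle, at -0.12 did not pass. The KIF23 call was lost without sorafenib library 2, sorafenib library 3 or DMSO library 3.

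Of the 6 spindle and midbody genes, ANLN and DLGAP5 fell and TPX2 and PRC1 rose, whereas after scaling to totals 4 were higher and none lower (limma). ANLN stood at 2290, 2430 and 2550 with sorafenib and at 3396, 3765 and 2868 with DMSO. The groups were separate and the mean was 72.5% of control (log2 change -0.46, SE 0.08, adjusted p = 0.000126), but after scaling to totals the change was -0.23 and was not called. PRC1, which bundles microtubules of the central spindle, stood at 104, 130 and 95 against 96.7, 55.9 and 73.1. These groups overlapped, and the call (log2 change 0.56, SE 0.19, adjusted p = 0.0168) was lost without sorafenib library 2 (0.43) or DMSO library 2 (0.36). The span of PRC1 overlaps that of PRC1-AS1, and whether the counting used strand is not given in the sources used here, so reads of the pair may not have been told apart. TPX2, the activator of AURKA, rose by 0.24, and DLGAP5, a microtubule-stabilizing protein, fell by 0.27 in groups that overlapped. The DLGAP5 call was lost without sorafenib library 1, sorafenib library 2 or DMSO library 2. HMMR, a spindle pole protein, at 0.08 and BIRC5, a subunit of the passenger complex with AURKB, at 0.00 did not pass.

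The 4 genes of anaphase and mitotic exit held changes of opposite sign, 2 lower and 1 higher, or 1 and 2 after scaling to totals. CDC20, the activator of the anaphase-promoting complex, stood at 7791, 7449 and 7308 with sorafenib and at 4487, 4291 and 4640 with DMSO, a 1.68-fold level (log2 change 0.75, SE 0.06, adjusted p = 6.63e-09). UBE2C, the enzyme that supplies that complex with ubiquitin, stood at 949, 973 and 891 against 2168, 2309 and 2686, 39.3% of control (log2 change -1.34, SE 0.08, adjusted p = 2.23e-10). Neither gene had overlapping groups. ESPL1 fell by 0.15, a call lost without sorafenib library 1, sorafenib library 2 or DMSO library 1, and PTTG1 at -0.03 did not pass.

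Both genes of chromosome structure fell, under either scaling. TOP2A, which untangles sister DNA molecules, stood at 1128, 1145 and 1258 with sorafenib and at 5303, 5670 and 4308 with DMSO. This was 23.1% of control, the largest change among the 35 (log2 change -2.10, SE 0.09, adjusted p = 7.51e-12). MKI67, which coats mitotic chromosomes, stood at 2270, 2696 and 2713 against 5131, 5194 and 4107, 53.2% of control (log2 change -0.91, SE 0.09, adjusted p = 9.13e-07). Both genes had separate groups.

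**Figure D3:**
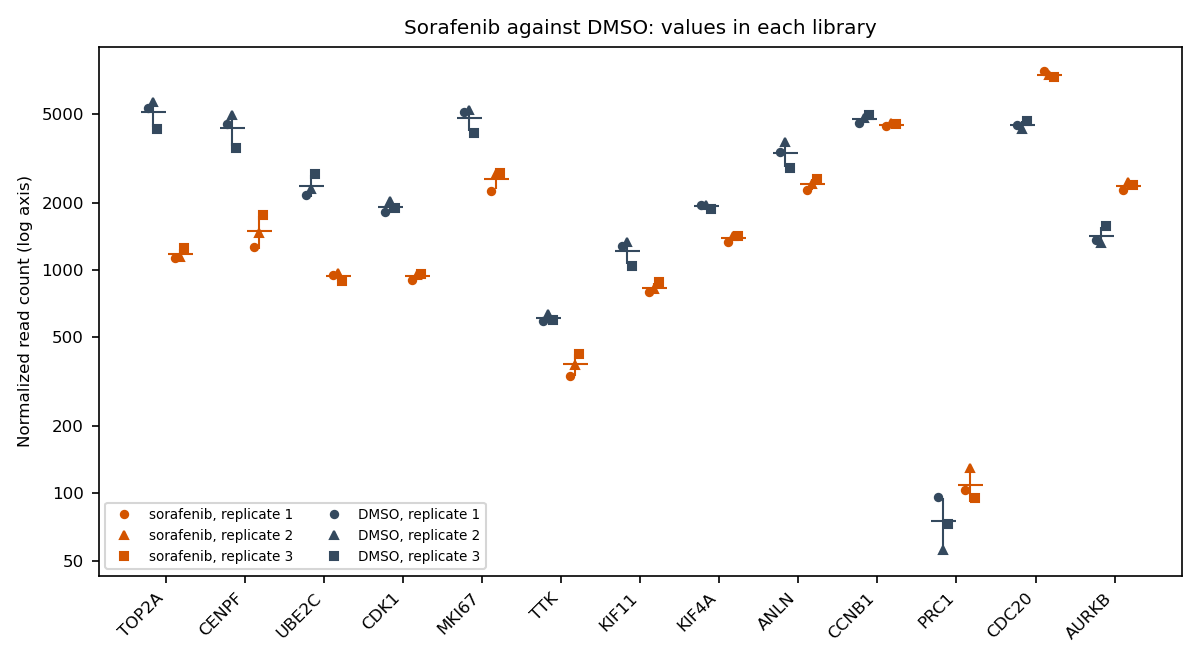
Normalized read counts on a log axis of the 13 genes described library by library, in order of their change, for 3 DMSO (dark) and 3 sorafenib (orange) libraries. Horizontal marks are means and vertical bars the SD; TOP2A lies at 1128 to 1258 with sorafenib and 4308 to 5670 with DMSO, and CDC20 at 7308 to 7791 and 4291 to 4640.

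By promoter, all 12 genes lower with sorafenib that had a window held a CHR core and 11 of them also held CCAAT in the same window. Of the 6 higher genes with a window, 4 held a CHR core and 3 held both in 1 window. Of the 12 that did not pass, 6 held a CHR core and 4 both. The numbers are small and the difference was not tested. CDC20, which rose, and TOP2A, which fell, each carry both motifs in the bases printed above.

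With MT1G overexpression the genes again divided: the checkpoint kinases TTK and BUB1 and the kinetochore motor CENPE were higher, and AURKB, CDC20, PLK1, survivin and separase were lower. By limma 6 of 35 were higher (17.1%, against 11.5% of the 13914 genes tested) and 8 lower (22.9%, against 11.3%), together 40.0% against 22.8%. Their median change was 0.00, as for all tested genes, and the median size of change was 0.21 against 0.20. Groups did not overlap for 15 of 35, against 39.4% of all tested genes. A change of at least 0.5 was called in 1 of them, CENPE, against 8.19% of all tested genes.

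These counts rested on single libraries. MT1G library 2 had the highest value of all 6 libraries for 19 of the 35 genes, and MT1G library 3 the lowest for 14. After scaling to totals 6 were higher and 6 lower, with 14.3% and 6.78% of all tested genes. Without MT1G library 2, 1 gene was higher and 7 were lower. Without vector library 2, 3 were higher and 6 lower, and without vector library 3, 2 were higher and 4 lower. Of the 6 higher calls only BUB1, and of the 8 lower calls AURKB, CDC20 and ESPL1, passed with each of the 6 libraries left out in turn.

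Among the genes that rose, CENPE stood at 269, 366 and 239 normalized read counts with MT1G overexpression and at 189, 212 and 189 with empty vector. The groups were separate (log2 change 0.55, SE 0.14, adjusted p = 0.0101), and without MT1G library 2 the change was 0.37 and did not pass. TTK stood at 526, 726 and 495 against 396, 464 and 422 (log2 change 0.43, SE 0.13, adjusted p = 0.0227). DLGAP5 stood at 592, 791 and 654 against 542, 540 and 505 (log2 change 0.35, SE 0.11, adjusted p = 0.0220). In both, every MT1G library was above every vector library and MT1G library 2 was the highest, and the calls were lost without it, without vector library 3, and without vector library 1 (TTK) or vector library 2 (DLGAP5). KIF14 stood at 493, 700 and 660 against 482, 491 and 473 (log2 change 0.34, SE 0.12, adjusted p = 0.0399), and passed only with all libraries in or without MT1G library 1. BUB1 rose by 0.32 (SE 0.08, adjusted p = 0.00648) and ANLN by 0.30, the latter in groups that overlapped and with a call lost without MT1G library 2, vector library 2 or vector library 3.

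Among the genes that fell, ESPL1 stood at 2058, 1807 and 2015 with MT1G overexpression and at 2868, 2712 and 2705 with empty vector, 71.0% of control (log2 change -0.50, SE 0.08, adjusted p = 0.000162). KIF20A stood at 3399, 3064 and 2490 against 3635, 4116 and 4114 (log2 change -0.42, SE 0.10, adjusted p = 0.00701), and without MT1G library 2 the change was -0.44 and did not pass (adjusted p = 0.0597). Its span overlaps that of CDC23, a subunit of the anaphase-promoting complex. AURKB stood at 1301, 1133 and 1291 against 1655, 1668 and 1602, 75.6% of control (log2 change -0.41, SE 0.08, adjusted p = 0.00164). CDC20 stood at 3954, 3407 and 3904 against 4659, 4683 and 4851, 79.4% of control (log2 change -0.34, SE 0.08, adjusted p = 0.00466). The groups were separate for these 4 genes. PLK1 fell by 0.32, BIRC5 by 0.30, UBE2C by 0.28 and CCNB2 by 0.27, and each of these calls was lost without vector library 3. The UBE2C groups overlapped, and its call was also lost without MT1G library 2 or vector library 2 and after scaling to totals. The CCNB2 call was also lost without MT1G library 3 or vector library 2 and after scaling to totals.

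Of the 5 genes with the largest falls under sorafenib, UBE2C also fell with MT1G overexpression, while TOP2A, CENPF, CDK1 and MKI67 did not pass. TOP2A stood at 2749, 4268 and 3645 against 3146, 2844 and 2744, in groups that overlapped (log2 change 0.27, 95% interval -0.06 to 0.60, adjusted p = 0.226), and it was higher by 0.44 without MT1G library 1 (adjusted p = 0.00483, limma) and at 0.12 without MT1G library 2 (adjusted p = 0.528). CDK1 stood at 1661, 1939 and 1730 against 1650, 1821 and 1754, also overlapping (log2 change 0.03, interval -0.15 to 0.20). MKI67 stood at 3663, 4294 and 3583 against 4388, 4353 and 4163 (log2 change -0.17, interval -0.34 to 0.01), and passed without MT1G library 2 (-0.25). CCNB1 stood at 4730, 4630 and 4253 against 4821, 5229 and 5164, with separate groups (log2 change -0.16, adjusted p = 0.140). The other genes that did not pass ran from -0.20 (PRC1) to 0.30 (HMMR).

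**Figure D4:**
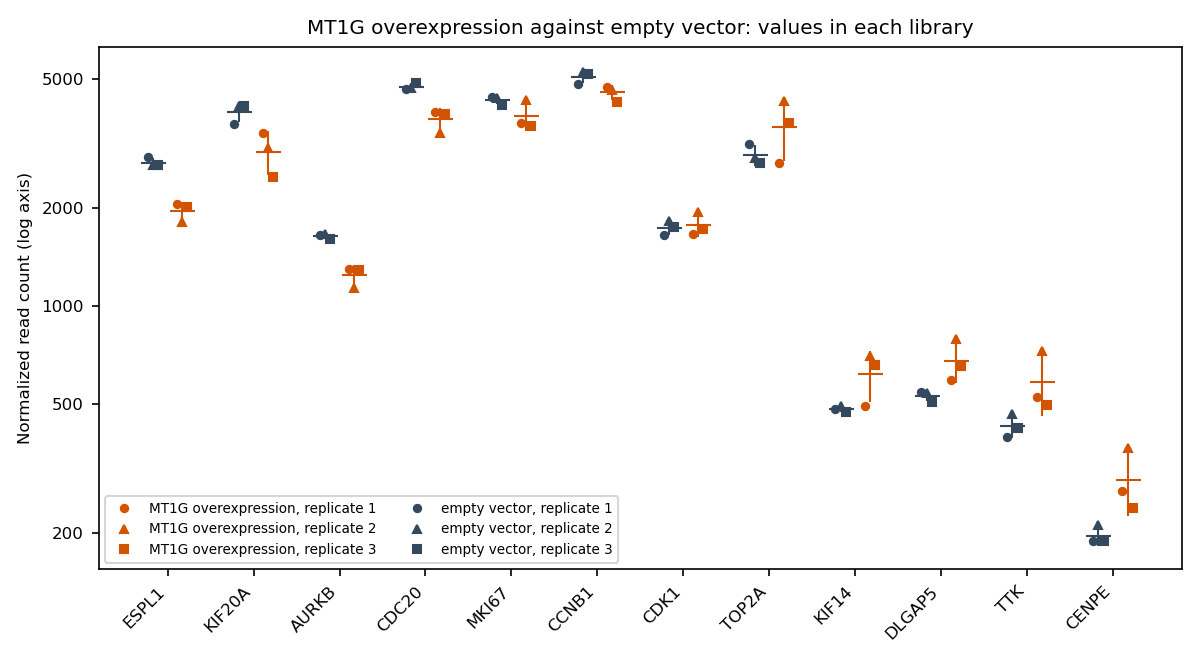
Normalized read counts on a log axis of the 12 genes described library by library, in order of their change, for 3 empty vector (dark) and 3 MT1G overexpression (orange) libraries, with means and SD. ESPL1 lies at 1807 to 2058 with MT1G and 2705 to 2868 with vector, and the MT1G library 2 triangles are the highest for CENPE, TTK, DLGAP5 and KIF14.

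The 2 comparisons share no library, so the changes could be tested against each other within 1 model of 4 group means. The change with sorafenib differed from that with MT1G overexpression in 24 of 35 genes (68.6%, against 54.3% of the 13748 genes tested in both, limma). In the lists described below the share was 67.5% of 40 S phase genes and 55.3% of 94 other mitotic genes. So a share near that of the 35 genes was also seen in the S phase genes. The change was more positive with sorafenib in 10 of the 35 genes (24.4% of all tested genes) and less positive in 14 (30.0% of all). After scaling to totals 12 were more positive and 11 less, with 31.6% and 21.9% of all tested genes. With each of the 12 libraries left out in turn, 7 of those 10 and 13 of those 14 passed every time. TOP2A differed most, by -2.37 (SE 0.20, adjusted p = 1.01e-06), followed by CENPF at -1.68. AURKB differed by 1.16 (SE 0.11, adjusted p = 1.03e-08) and CDC20 by 1.09 (SE 0.09, adjusted p = 3.78e-09).

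Of the 35 genes, 9 passed in both comparisons, against 16.9% of all genes tested in both, and 7 of the 9 went in opposite directions (77.8%, against 39.0% of the 2329 genes called in both). AURKB and CDC20 were higher with sorafenib and lower with MT1G overexpression. TTK, BUB1, KIF14, DLGAP5 and ANLN were lower with sorafenib and higher with MT1G overexpression. UBE2C and ESPL1 were lower in both, of which after scaling to totals UBE2C passed only with sorafenib and ESPL1 only with MT1G overexpression. A further 12 genes passed with sorafenib alone, 5 with MT1G overexpression alone, and 9 in neither. The number of opposite genes was 3 without MT1G library 2 or vector library 3 and 4 without vector library 2, and 5 after scaling to totals. Over the 35 genes Pearson's r between the changes was -0.34, against 0.16 over all genes tested in both, given as a description since genes are not independent replicates.

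**Figure D5:**
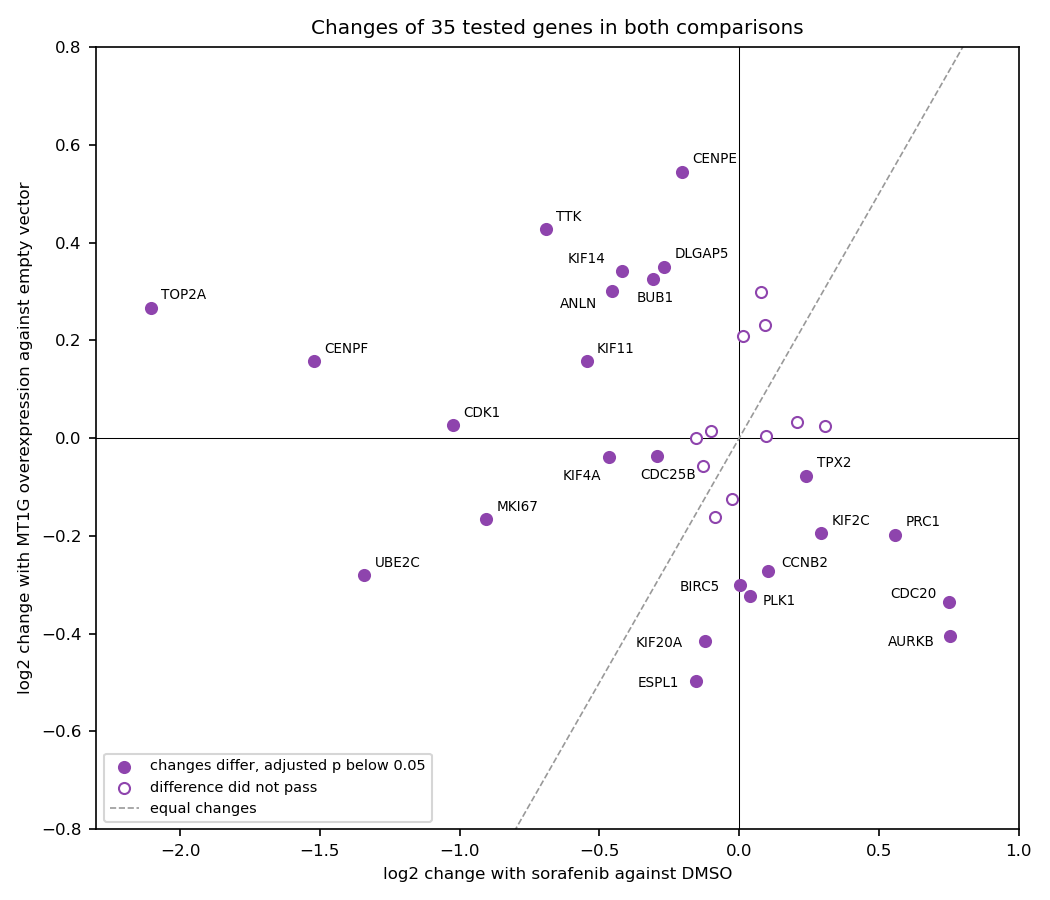
Log2 change with MT1G overexpression (vertical) against log2 change with sorafenib (horizontal) for the 35 tested genes. Filled points are the 24 genes whose changes differ by limma, and the dashed line marks equal changes; AURKB and CDC20 lie at lower right and TTK, BUB1, KIF14, DLGAP5 and ANLN at upper left.

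The wider mitotic pathway was read from 97 other genes in 6 lists, whose counts stand beside the same shares of all tested genes given above. With sorafenib 26 of the 96 tested rose and 38 fell, with a median of -0.08, and after scaling to totals 43 were higher and 26 lower. Of 15 genes of G2/M transcription control, 6 rose and 4 fell, with a median of 0.16, against 9 higher and 3 lower after scaling to totals. FOXM1, the forkhead factor of mitotic genes, stood at 3320, 3474 and 3578 with sorafenib against 2884, 2647 and 2906 with DMSO (log2 change 0.30, SE 0.06, adjusted p = 0.000332, limma). MYBL2 (B-MYB) stood at 7360, 7124 and 7418 against 5875, 5661 and 6717 (log2 change 0.27, SE 0.06, adjusted p = 0.00165). Both had separate groups. NFYC, a subunit of NF-Y, rose by 0.66, while RBBP4, a MuvB subunit, fell by 0.58 and TFDP1, a partner of E2F factors, by 0.58.

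The anaphase-promoting complex and its regulators had 12 lower and 4 higher of 18, with a median of -0.25, but 7 lower and 5 higher after scaling to totals. FZR1 (CDH1), the activator that takes over from CDC20 in late mitosis, fell from 1357 ± 110 to 357 ± 13.1 normalized read counts (SD, n = 3; log2 change -1.92, SE 0.08), and the subunit CDC26 fell by 0.99. ANAPC10, another subunit, rose from 56.4 ± 13.2 to 142 ± 7.23 (log2 change 1.34), and the enzyme UBE2D1 rose by 0.93. Of 24 tested kinetochore and checkpoint genes outside the 36, 6 rose, led by MIS12 at 1.38 and the cohesin protector SGO1 at 1.03. In that list 9 fell, led by INCENP, the scaffold on which AURKB sits, at -1.03 and the centromere protein CENPC at -0.96, and after scaling to totals 11 were higher and 6 lower. INCENP stood at 1402 ± 77.0 with sorafenib and 2859 ± 79.4 with DMSO.

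Of 8 condensin subunits 4 fell, among them NCAPH at -0.93 and SMC2 at -0.73, and 1 rose, NCAPH2 at 0.61, but after scaling to totals 4 were higher and 4 lower. Of 19 other motors and spindle proteins 5 rose, led by CKAP2L at 1.03, and 4 fell, led by CKAP5 (ch-TOG) at -1.06 and ASPM at -0.89, with 8 higher and 2 lower after scaling to totals. Of 12 genes of CDK1 entry control 4 rose, led by BORA, an activator of PLK1, at 0.86 and the phosphatase CDC25A at 0.75. In that list 5 fell, led by cyclin F (CCNF) at -1.31 and the CDK1-binding CKS1B at -0.86, with 6 higher and 4 lower after scaling to totals. For comparison, of 40 S phase genes 15 rose and 12 fell with sorafenib, with a median of 0.04, and after scaling to totals 25 were higher and 6 lower.

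With MT1G overexpression 13 of 94 tested pathway genes rose and 17 fell, with a median of 0.04, and after scaling to totals 17 were higher and 10 lower. FOXM1 stood at 2964, 2542 and 2582 against 3156, 3298 and 3293 with empty vector (log2 change -0.27, SE 0.08, adjusted p = 0.0193, limma). MYBL2 stood at 6510, 5653 and 5517 against 8157, 8603 and 8796 (log2 change -0.53, SE 0.08, adjusted p = 8.28e-05). Every MT1G library was below every vector library in both genes, whereas with sorafenib every library was above its controls. The change differed between the comparisons by 0.57 (SE 0.10, adjusted p = 4.30e-05) for FOXM1 and by 0.80 (SE 0.10, adjusted p = 1.44e-06) for MYBL2. These 2 calls were not examined with single libraries left out. Of the 15 genes of G2/M transcription control 1 rose and 3 fell with MT1G overexpression, with a median of 0.06. After scaling to totals 1 was higher and 2 lower. The changes differed between the comparisons in 7 of the 15 (46.7%, against 54.3% of all genes tested in both). LIN52, a MuvB subunit, rose by 0.43, and RBBP4 fell by 0.22. Of 18 anaphase-promoting complex genes 4 rose, led by ANAPC4 at 0.42 and UBE2D1 at 0.41, and ANAPC15 fell by 0.43, with 5 higher and none lower after scaling to totals (limma).

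Of 24 kinetochore and checkpoint genes outside the 36, 3 rose and 4 fell with MT1G overexpression, with SGO2 at 0.50 and KNL1 at 0.46 against SPC24 at -0.30 and INCENP at -0.30, and after scaling to totals 5 were higher and 1 lower. Both condensin calls were lower, NCAPD2 at -0.38 and NCAPH2 at -0.31, and after scaling to totals 1 subunit was lower. Of 17 tested motors and spindle proteins 2 rose, KIF18A at 0.63 and CKAP2L at 0.37, and 4 fell, led by KIF18B at -0.36 and KIF22 at -0.35, or 3 and 4 after scaling to totals. Of 12 entry control genes 3 rose, led by the Greatwall kinase MASTL at 0.46, and 3 fell, led by CCNF at -0.38, or 3 and 2 after scaling to totals. Of the 40 S phase genes none rose and 10 fell, with a median of -0.17, and after scaling to totals 1 was higher and 5 lower.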

How the data were processed

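Members and lists were chosen with earlier results of these data known. The deposited RNA values are normalized read counts per the file headers (a signal): the authors' gene counts over 1 size factor for each library. The submitters' processing notes list, without role or order, MACS2 2.2.7.1, SAMtools, Picard, Bowtie2 2.4.1, DESeq2, featureCounts 1.6.1, HISAT2 1.1.0, cutadapt and the build hg38. The deposited comparison tables held the authors' log2 fold change and its standard error, a test score, and a p-value with its adjusted value. The deposited peak lists, 1 per library with 131245, 156770, 139304 and 135681 peaks, held the authors' score, fold enrichment (a ratio), -log10 p and -log10 q. RNA columns name treatment or control and a number, used here as the library number.

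Tests used limma 3.58.1 under R 4.3.3 (trend, robust, two-sided) and took in each gene whose 6 libraries averaged 10 or more. They ran on log2 of the value plus 1, a scale that understates changes of low genes, with Benjamini-Hochberg adjustment over all tested genes and a threshold of 0.05. The difference of changes used 4 group means over genes with a mean of at least 10 in both tables. Values are given per library for the 12 (sorafenib) and 8 (MT1G) largest called changes and for TOP2A, CDC20, CCNB1, CDK1 and MKI67. From the other lists, FOXM1, MYBL2 and up to 2 genes per direction with the largest called change are named. Genes named outside this rule were chosen after their values were seen. In the sorafenib table reads were whole within 0.001 for 100% of values once multiplied by the size factor, and DESeq2 1.42.0 and edgeR 4.0.16 were run on those reads as alternatives. The first MT1G column had a size factor too near 1 for that check, so count tests were not run there and its total is an estimate. Reads in genes were 21082356, 19542500 and 16549330 (sorafenib), 18243722, 21074785 and 19533077 (DMSO), 20554100, 16844722 and 26781600 (MT1G), and 18641130, 23324749 and 18116136 (vector). Replicates correlated at 0.987 or more. Fits were tested on simulated data. Where gene spans overlap, counts may mix both genes or miss shared reads. Such pairs include CCNA2 with EXOSC9, PLK1 with ERN2, BUB1B with BUB1B-PAK6 and SPC25 with NOSTRIN. Others are ANLN with MATCAP2, HMMR with HMMR-AS1 and KIF23 with KIF23-AS1.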

Additional observations from a re-analysis of the deposited data

How the results depend on the processing

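With sorafenib the counts of 7 higher and 14 lower became 16 and 8 after scaling to library totals, and 3 and 7 with a minimum absolute log2 change of 0.5. With MT1G overexpression the counts of 6 and 8 became 1 and 0 at that minimum (limma, which called 8 lower without it). Leaving out 1 library gave 5 to 7 higher and 12 to 17 lower with sorafenib, 1 to 7 higher and 4 to 9 lower with MT1G overexpression, 7 to 11 more positive and 13 to 14 less positive differences, and 3 to 9 opposite genes. The log2 change of CCNB1 with sorafenib turned to 0.14 after scaling to totals, and that of CDK1 with MT1G overexpression, 0.03, to -0.038 without MT1G library 2 and -0.012 without vector library 1, in a range of -0.038 to 0.074 over the libraries left out. The cause was not tested. Of 326 values of genes given per library, 303 kept direction and call, 16 lost the call, 4 gained it and 3 turned. The 4 gains were TOP2A with MT1G overexpression under no filter on low values, a replicate block and without MT1G library 1, and MKI67 without MT1G library 2. Of 50 counts under settings other than leaving out a library, 44 stayed within 1.5 times.

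On recovered sorafenib reads DESeq2 gave 7 higher and 13 lower, edgeR 8 and 13, and the authors' deposited table gave 5 and 14 (6 and 8 for MT1G overexpression). Library numbers did not pair the samples: same-numbered deviations correlated at -0.03, 0.03 and -0.06 with sorafenib and -0.14, 0.04 and -0.06 with MT1G overexpression. With a replicate block 7 were higher and 13 lower with sorafenib, and 7 and 8 with MT1G overexpression. All 31 promoters kept a peak in all 4 libraries with a -log10 q of at least 5, with at least 50% of the window covered, and within 1000 bases of the start. TMM factors for the MT1G table came from its deposited values, and DESeq2, edgeR and the joint edgeR test were not run on it. SPC25 was under the minimum level and was not tested.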
